A study of Mus musculus with 3 samples.

Results

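Tmprss genes encode type II transmembrane serine proteases, and the 8 examined here, Tmprss11a, Tmprss11b, Tmprss11d, Tmprss11e, Tmprss11f, Tmprss11g, Tmprss2 and Tmprss4, were taken by symbol from the 33696 features counted in single cells of the mouse larynx. All 8 were found in the counts. Each was followed across classes of epithelial cells that were set apart by fixed counts of marker transcripts, with no Tmprss count among them, and the question was which of these genes the airway epithelium shares with the rest of the laryngeal epithelium and which it does not. The cells came from 3 libraries, and the larynges of 10 mice, 5 of each sex, were pooled for each library. The mice carried Lrig1Cre ERT2/+ and ROSA LSL-tdTomato/+, were given tamoxifen on consecutive days, and had their larynges collected 1 day after recombination and the cells sorted for tdTomato. All libraries belong to this single condition, so the comparisons are between classes of cells within them, with n = 3 libraries unless 2 are named. The reporter marks cells in which the Lrig1 promoter was active, WT and ROSA LSL-tdTomato/+ larynges were negative and background controls of the sort and are not among the libraries, and the age of the mice is not given in the sources used here. The counts hold no feature for tdTomato or Cre and give no check of the sort.

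Proteases of this family sit in the plasma membrane with a short tail inside the cell and a serine protease domain outside it, and they are made as inactive precursors that need a cut to become active. They trim proteins at the surface of epithelia, among them sodium channel subunits, protease-activated receptors and the entry proteins of respiratory viruses, and Kunitz and serpin inhibitors hold them in check. Tmprss11d is the mouse counterpart of human airway trypsin-like protease, Tmprss11e that of DESC1, and Tmprss2 is best known for cutting influenza haemagglutinin and coronavirus spike.

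The 6 Tmprss11 genes lie side by side on the reverse strand of chromosome 5 (GRCm39, 86450076 to 86893674), a stretch of 443.6 kb that holds 6 protein-coding genes in GENCODE vM39, all of them members. In the order of the chromosome they are Tmprss11d (ENSMUSG00000061259, 86450076 to 86554872), Tmprss11a (ENSMUSG00000072845, 86558269 to 86616849), Tmprss11g (ENSMUSG00000079451, 86633735 to 86666459), Tmprss11f (ENSMUSG00000048764, 86669757 to 86780283), Tmprss11b (ENSMUSG00000035861, 86805490 to 86824221) and Tmprss11e (ENSMUSG00000054537, 86853045 to 86893674). Tmprss2 (ENSMUSG00000000385) lies on chromosome 16 from 97365882 to 97412395 and Tmprss4 (ENSMUSG00000032091) on chromosome 9 from 45084024 to 45115390, both on the reverse strand. Tmprss11e and Tmprss4 are overlapped by genes on the opposite strand, Tmprss4 by the protein-coding Smim35 among others. The transcripts of the 17 Tmprss genes in the files were compared in 136 pairs, and 0 pairs shared a run of 31 bases, so a read of that length belongs to 1 of them at most.

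The 250 bases before the transcription start of 4 members are shown because the genes stand for the patterns described below: Tmprss11a and Tmprss11b were called lower in airway than in other basal cells, and their neighbour Tmprss11g and the distant Tmprss2 were not called in the main fit. Tmprss2 was still lower in airway basal cells of every library and was called in a fit with the library as a block. The sequences are from RefSeq, given 5′ to 3′ along the gene and ending at the base before the start. Capitals mark a match to CAAGTG, the core that NKX2 factors bind, searched on both strands.
Tmprss11a, GRCm38.p6 chr5:86468991-86469240, reverse strand: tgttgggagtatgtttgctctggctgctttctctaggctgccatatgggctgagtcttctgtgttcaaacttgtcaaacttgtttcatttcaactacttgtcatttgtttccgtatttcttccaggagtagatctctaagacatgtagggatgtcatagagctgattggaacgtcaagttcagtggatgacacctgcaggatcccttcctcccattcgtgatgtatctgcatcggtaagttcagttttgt
Tmprss11b, GRCm38.p6 chr5:86676299-86676548, reverse strand: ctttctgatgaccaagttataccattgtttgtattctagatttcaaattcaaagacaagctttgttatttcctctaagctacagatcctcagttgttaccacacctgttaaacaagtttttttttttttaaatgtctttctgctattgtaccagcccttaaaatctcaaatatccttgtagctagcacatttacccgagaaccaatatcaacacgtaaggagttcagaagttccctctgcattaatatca
Tmprss11g, GRCm38.p6 chr5:86518601-86518850, reverse strand: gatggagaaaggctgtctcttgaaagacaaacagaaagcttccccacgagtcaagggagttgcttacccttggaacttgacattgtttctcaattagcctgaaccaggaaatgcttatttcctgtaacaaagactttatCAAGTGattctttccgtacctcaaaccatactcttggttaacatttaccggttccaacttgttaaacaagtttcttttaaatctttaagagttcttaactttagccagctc
Tmprss2, GRCm38.p6 chr16:97611196-97611445, reverse strand: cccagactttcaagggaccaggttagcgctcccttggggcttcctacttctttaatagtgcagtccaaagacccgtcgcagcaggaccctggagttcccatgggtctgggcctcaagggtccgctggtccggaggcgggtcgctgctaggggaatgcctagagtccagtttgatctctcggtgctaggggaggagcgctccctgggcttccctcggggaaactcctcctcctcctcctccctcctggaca

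Of the 8 members, 6 had an entry in the RefSeq promoter table; Tmprss11e and Tmprss4 did not. CAAGTG was found in Tmprss11g alone of the 6, from 111 to 106 bases before the start, and 11.6% of all 32851 promoter windows of this length hold it. The AP-1 motif TGANTCA was found in Tmprss11d, from 39 to 33 bases before the start, and in Tmprss11f, from 48 to 42 bases before it, against 6.75% of all windows. TATAAA (12.4% of all windows) and the GATA motif AGATAA (9.99%) were in none of the 6. A match is a description of these letters in this window, and no factor's binding was measured.

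The libraries held 18068, 10816 and 31646 barcodes, and 44542 cells remained in all after limits on genes, unique molecular identifiers (UMIs) and mitochondrial share and the removal of 4851 likely doublets. Median depth was 10591, 14064 and 10445 UMIs per cell in libraries 1, 2 and 3, and 46 to 165 cell barcodes were shared between any pair of libraries. Basal cells had at least 2 Trp63 and 5 Krt5 UMIs. They were called airway basal (6231 cells) with at least 1 UMI of Nkx2-1, the transcription factor of lung and tracheal epithelium, and other basal (6594 cells) with none. Airway secretory cells (593) carried Nkx2-1 and at least 10 UMIs of Scgb3a2 or Scgb1a1, and airway basal-secretory cells (2327) had Scgb3a2 together with Trp63. Without Nkx2-1 stood the Krt13-high squamous cells (1734, at least 10 Krt13 UMIs), the Grm8/Clca3a2 suprabasal cells (2178) and the Sult1b1/Muc4/Atp6v0a4 luminal cells (1279), and ciliated (1016), Muc5b-high goblet (406) and neuroendocrine (90) cells were set by their own markers. Library sums of under 20 cells were not used, which left out neuroendocrine cells of library 3 and all 34 Dcpp-high gland cells, and thyroid cells and epithelial cells of no class (7837) were set aside. Krt4, a squamous keratin used by no gate, was at 1613 CPM (UMI counts scaled to a class total of 1e6) ± 193 (SD, n = 3) in Krt13-high squamous cells and at 184 ± 31.8 in airway secretory cells, whereas Cyp2f2, listed as a secretory marker, was high in both (4776 ± 700 and 9286 ± 1011 CPM). Below, a level is the summed UMI count of a class as CPM, and a share is the percentage of cells with a UMI after each cell was thinned to 5000 UMIs. Levels come from counting one end of a transcript and are compared between classes, not between genes.

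Tmprss11a was present throughout the basal and squamous epithelium and fell away toward the airway secretory cells. In other basal cells its level was 485, 432 and 539 CPM in libraries 1, 2 and 3, and in airway basal cells 150, 211 and 265 CPM. Every library was lower in the airway cells and the groups did not overlap. The highest class mean was in Grm8/Clca3a2 suprabasal cells (573 CPM ± 79.9, SD, n = 3), followed by Krt13-high squamous cells (518 ± 69.9) and other basal cells (485 ± 53.6), and the library ranges of these 3 classes overlapped. Sult1b1/Muc4/Atp6v0a4 luminal cells followed at 339 ± 53.8, and then the airway classes in the order basal (209 ± 57.7), basal-secretory (109 ± 9.74) and secretory (28.0 ± 6.23), with no overlap between the libraries of neighbours. The share of cells with a Tmprss11a UMI was 84.0% ± 2.91 in Grm8/Clca3a2 suprabasal cells, 73.0% ± 6.26 in other basal cells, 41.2% ± 10.5 in airway basal cells and 13.7% ± 0.996 in airway secretory cells. Without thinning these shares were 94.9%, 84.6%, 55.9% and 23.9%, in the same order. In fibroblasts, taken here as cells that should lack it, the share was 2.05% ± 1.49 at 3.66 CPM, and 4.02% without thinning, with a median depth of 11308 UMIs against 13083 in other basal and 16760 in airway secretory cells. Ciliated cells (10.4 CPM ± 7.23, share 2.35%) and neuroendocrine cells (8.20 CPM, 2 libraries, share 2.96%) had shares close to that of fibroblasts and are not read as expression.

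Tmprss11b, the neighbour with the shortest gene, had the same edge between airway and other cells but a different order above it. In libraries 1, 2 and 3 it stood at 156, 137 and 149 CPM in Sult1b1/Muc4/Atp6v0a4 luminal cells, at 80.0, 109 and 97.7 CPM in Krt13-high squamous cells, and at 46.8, 58.3 and 46.4 CPM in other basal cells. These 3 classes did not overlap, and Grm8/Clca3a2 suprabasal cells (132 CPM ± 7.97) lay between the squamous and the luminal cells, within 1 CPM of the lowest luminal library. For Tmprss11a every luminal library lay below every other basal library. In airway basal cells it stood at 12.7, 19.0 and 22.1 CPM and in airway secretory cells at 9.40, 17.7 and 15.3 CPM, 2 ranges that overlapped. Its share of cells was 45.4% ± 4.05 in luminal cells, 17.6% ± 2.55 in other basal cells, 7.73% ± 1.80 in airway basal cells and 4.03% ± 1.09 in airway secretory cells, against 0.284% ± 0.302 in fibroblasts.

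Tmprss11e, the DESC1 counterpart, was counted at a low level. It reached 42.7, 37.4 and 24.1 CPM in Grm8/Clca3a2 suprabasal cells, a range that overlapped that of Krt13-high squamous cells (28.3 ± 10.7), and it stood at 19.2, 26.8 and 10.5 CPM in other basal cells and 6.31, 10.4 and 5.99 CPM in airway basal cells. Library 3 was the lowest in each of these classes. Unlike Tmprss11a it had a higher mean in Sult1b1/Muc4/Atp6v0a4 luminal cells (23.9 CPM ± 8.16) than in other basal cells (18.9 ± 8.16), with overlapping libraries. Airway secretory cells held 14 Tmprss11e UMIs in all, or 1.50 CPM ± 0.650.

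Tmprss11d and Tmprss11f were detected in few cells of any class. Tmprss11d, the airway trypsin-like protease, was at 20.6, 29.3 and 13.9 CPM in Sult1b1/Muc4/Atp6v0a4 luminal cells, at 9.29, 15.7 and 24.6 CPM in Krt13-high squamous cells and at 3.07, 29.3 and 16.6 CPM in Muc5b-high goblet cells. These ranges overlapped, and the goblet libraries differed most. It was at 2.27 CPM ± 0.883 in airway secretory cells and at 4.11 ± 3.85 in airway basal cells, where library 3 (8.42 CPM) stood above libraries 1 and 2 (1.01 and 2.91). Tmprss11f had no class above a mean of 3.83 CPM, that of Grm8/Clca3a2 suprabasal cells. No Tmprss11f UMI was counted in 390, 227 and 399 ciliated cells, which allows up to 0.470, 0.735 and 0.696 CPM (3 counts per library, counting error only).

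Tmprss11g departed from its neighbours. It stood at 45.9, 93.8 and 60.4 CPM in airway basal cells of libraries 1, 2 and 3, and at 45.9, 69.5 and 44.1 CPM in other basal cells. The groups overlapped, library 2 was the highest in both, and of the 6 Tmprss11 genes it was the only one with a higher class mean in airway than in other basal cells. Its share was 21.2% ± 4.03 in airway basal and 19.5% ± 0.936 in other basal cells. In airway secretory cells it dropped to 3.05, 17.7 and 16.5 CPM, below all basal libraries, and airway basal-secretory cells lay between the basal and the secretory cells at 35.1 CPM ± 6.71.

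Tmprss2, the activator of viral entry proteins, was found in each of the 10 epithelial classes followed here. Its level was 135, 112 and 99.5 CPM in ciliated cells, the highest class, and 43.4 and 59.8 CPM in the 2 neuroendocrine libraries with enough cells, the lowest of these 10. The Dcpp-high gland cells left out as too few held 6 Tmprss2 UMIs, or 0.0181% of the gene's UMIs on 0.115% of all UMIs, a smaller part than any of the 10. Class means between these ends ran from 58.3 CPM (airway basal) to 87.3 CPM (Sult1b1/Muc4/Atp6v0a4 luminal), and most neighbours in that order overlapped. Fibroblasts had 1.18 CPM ± 0.242, far below each of the 10 epithelial classes. Its share of cells ranged from 17.8% in neuroendocrine to 39.9% in ciliated cells, against 0.896% in fibroblasts.

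Tmprss4, linked to epithelial sodium channel processing, had a pattern of its own. It reached 88.4 and 93.4 CPM in the neuroendocrine cells of libraries 1 and 2, from 104 and 64 UMIs. Ciliated cells followed at 31.3, 29.9 and 29.9 CPM, Krt13-high squamous cells at 24.7, 24.2 and 33.3 CPM and Sult1b1/Muc4/Atp6v0a4 luminal cells at 29.1, 22.6 and 28.1 CPM, where the squamous range overlapped each of the others and the ciliated libraries lay above the luminal ones. Neuroendocrine libraries lay above all of these, on 53 and 26 cells. Both basal classes were near the bottom, at 2.83 CPM ± 1.51 (other) and 2.42 ± 1.84 (airway), as were Grm8/Clca3a2 suprabasal cells at 2.56 ± 1.15. Airway secretory cells held 12.2, 6.56 and 8.71 CPM, above every airway basal library. The share of neuroendocrine cells with a Tmprss4 UMI was 16.7% in library 1 (95% Wilson interval 8.70 to 29.6) and 42.3% in library 2 (25.5 to 61.1), so the share was poorly fixed. No interval was computed for the level, which rests on the same 2 libraries.

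**Figure D1:**
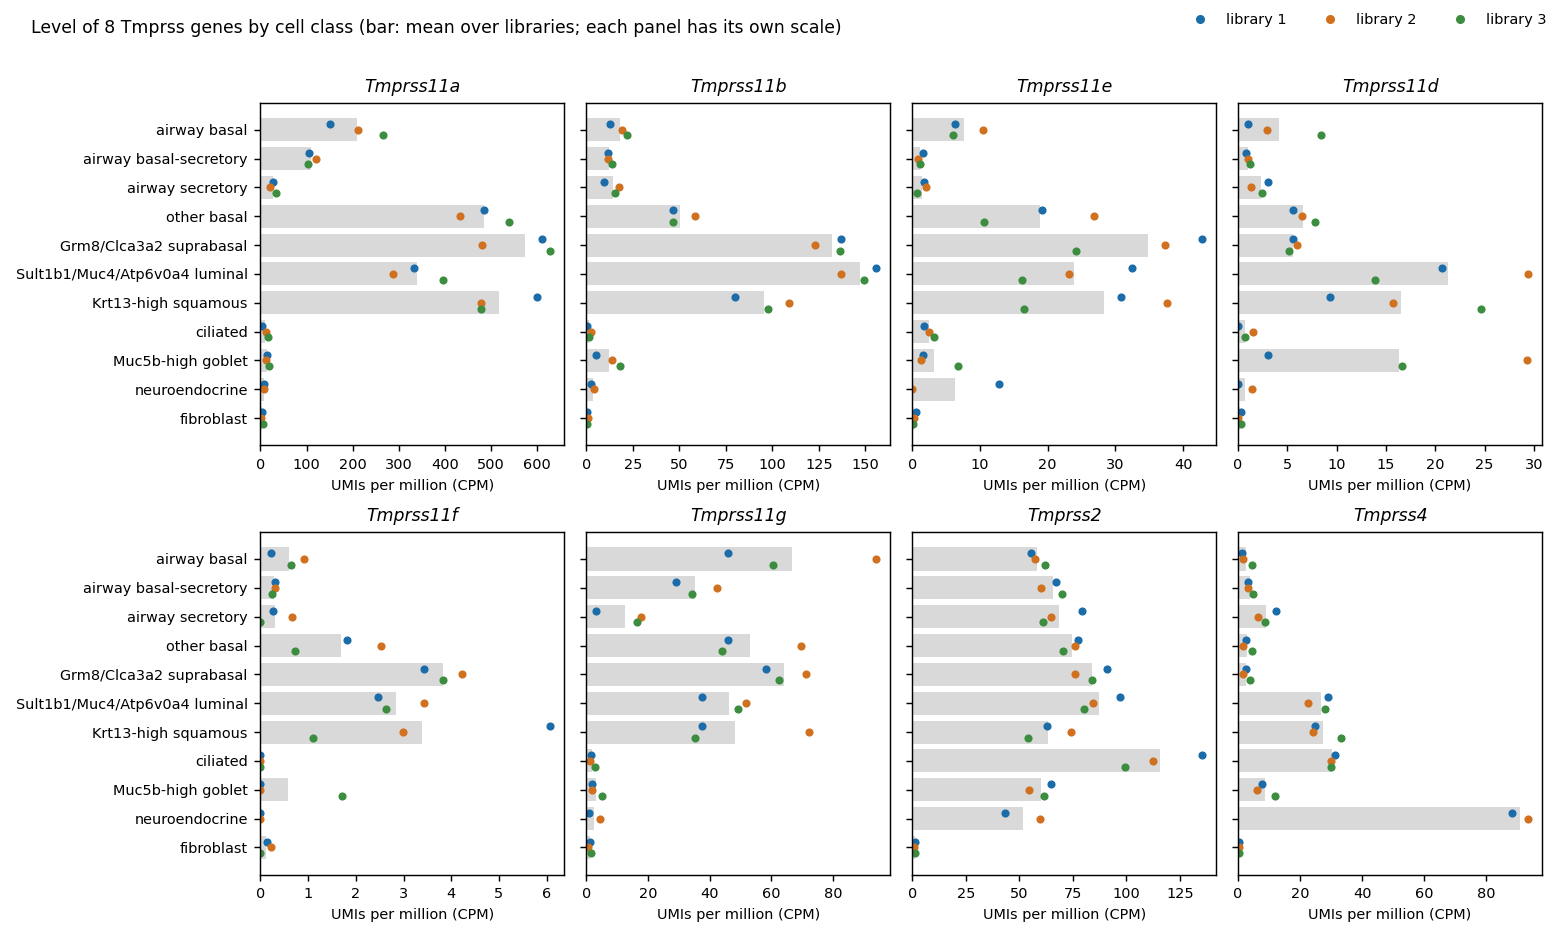
Level of the 8 genes in CPM (horizontal axis, its own scale in each panel) by cell class (vertical axis); grey bars are means over libraries and points are libraries. Tmprss11a, Tmprss11b and Tmprss11e are high in the 4 classes without Nkx2-1 and low in the airway classes, Tmprss11g is as high in airway basal cells (mean 66.7 CPM) as in other basal cells (53.2), Tmprss2 is in all 10 epithelial classes drawn, and Tmprss4 peaks in neuroendocrine cells (90.9).

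The split between airway and other basal cells was tested over all genes with edgeR's quasi-likelihood test on the summed counts, Nkx2-1 left out because it set the groups. Of 16567 genes tested, 3.6% were called higher and 2.39% lower in airway basal cells. Of the 8 members, all of which passed the filter on low counts, 3 were called lower and 0 higher. Tmprss11b fell by 1.51 on the log2 scale (SE 0.214, adjusted p = 6.26e-05), Tmprss11a by 1.24 (SE 0.258, adjusted p = 0.00313) and Tmprss11e by 1.36 (SE 0.391, adjusted p = 0.0371), each in 3 of 3 libraries. The median log2 fold change of the 8 was -0.94, against -0.01 over all genes tested. Tmprss11b was called in all 10 alternatives tried (adjusted p up to 0.0200). Tmprss11a missed the threshold without library 2 (adjusted p = 0.102) and with likely doublets kept (0.114), and Tmprss11e without library 1 (0.417), without library 2 (0.234), with doublets kept (0.0789) and in DESeq2 (0.0531), with the direction unchanged each time.

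For Tmprss11g the difference was 0.30 on the log2 scale (SE 0.302, adjusted p = 0.782), and the 95% interval of -0.29 to 0.89 leaves room for a change in either direction. Tmprss2 was at 55.3, 57.4 and 62.1 CPM in airway basal and 77.2, 76.2 and 70.4 CPM in other basal cells, with no overlap. Its log2 fold change of -0.38 (SE 0.131) had an adjusted p of 0.101, and 0.00818 with the library as a replicate block. Tmprss11f (-1.50, SE 0.633, adjusted p = 0.221), Tmprss11d (-0.64, SE 0.522, adjusted p = 0.690) and Tmprss4 (-0.19, SE 0.354, adjusted p = 0.930) did not pass. Of these, Tmprss11f was lower in airway basal cells in 3 of 3 libraries, with overlapping ranges, on 54 UMIs against 118.

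**Figure D2:**
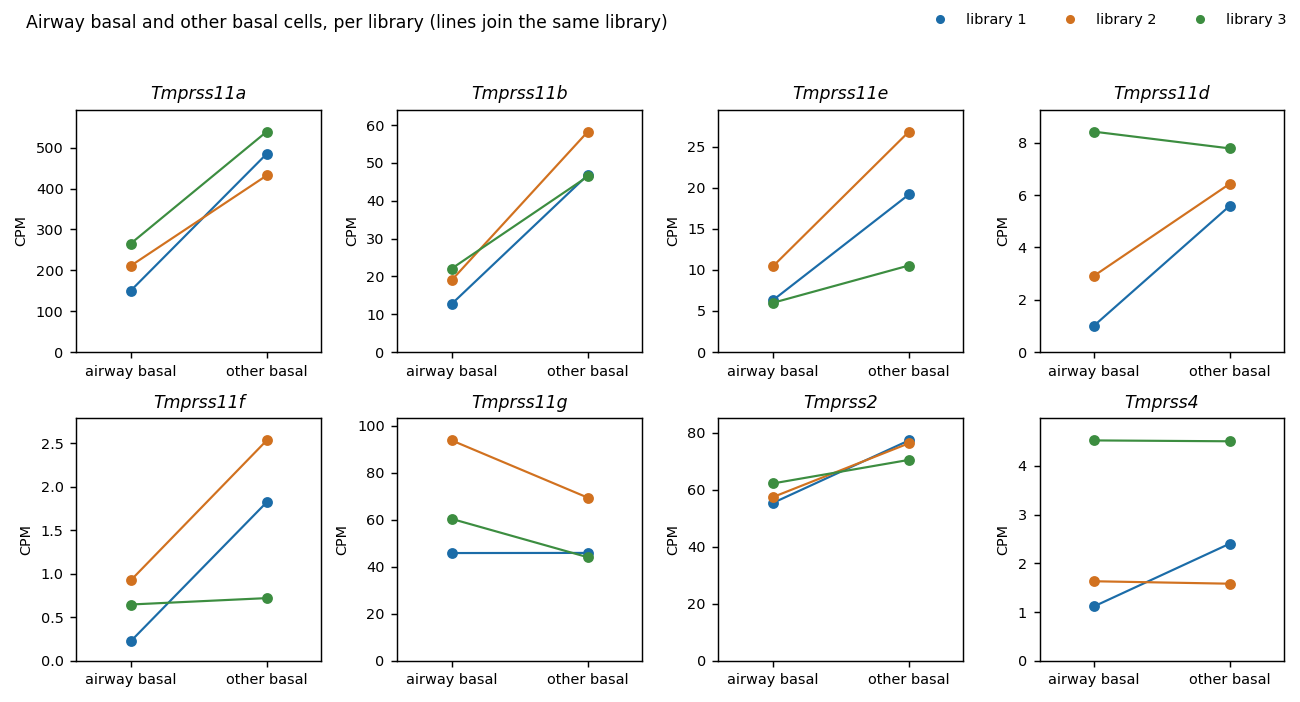
Level in CPM (vertical axis, from 0 in each panel) in airway basal and other basal cells; points are libraries and lines join the same library. All 3 lines rise from airway to other basal cells for Tmprss11a, Tmprss11b, Tmprss11e, Tmprss11f and Tmprss2. For Tmprss11g the lines of libraries 2 and 3 fall and that of library 1 is nearly level.

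The 2 basal classes also differed in other respects that were measured. Their median depth was 13836 UMIs (airway) and 13083 (other). Of the fibroblast markers Pdgfra, Col1a2 and Dcn, whose sum ran from 476 to 670 CPM in airway basal and from 141 to 290 CPM in other basal cells, only Dcn differed by more than the spread between libraries (475 to 668 against 141 to 272 CPM); Pdgfra was at 0.369 to 3.08 CPM and Col1a2 at 0.211 to 21.6 CPM in the 2 classes, against 630 to 720 and 1147 to 2804 CPM in fibroblasts. The summed endothelial, immune, muscle satellite and thyroid markers were each at or below 18.7 CPM in both classes. Krt14, the keratin of the basal layer, stood at 933 CPM ± 87.4 in airway and 1148 ± 301 in other basal cells. Krt4 (119 to 214 CPM in airway, 256 to 373 in other basal cells) and Foxe1 (27.9 to 44.3 against 68.2 to 108) were lower in airway basal cells without overlap. Cyp2f2 was higher in them (5272 to 6785 against 3747 to 4415 CPM), also without overlap. The part of these differences in the Tmprss result was not tested, except that depth and Krt14 could be held within a range, as follows.

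Among basal cells of 10000 to 20000 UMIs, sorted by the number of Nkx2-1 UMIs in the cell, the widest step in Tmprss11a came with the first Nkx2-1 UMI. Of cells with 0 Nkx2-1 UMIs, 62.5%, 70.9% and 81.9% had a Tmprss11a UMI in libraries 1, 2 and 3, and of cells with exactly 1 it was 31.7%, 32.4% and 46.5%. From there the mean share was 36.9%, 36.4% and 35.5% at 1, 2 and 3 Nkx2-1 UMIs and 28.0% ± 6.95 at 4 or more. The mean level was 495 CPM ± 79.4 at 0 and then went on down from 201 ± 54.4 at 1 to 183 ± 27.4, 170 ± 47.9 and 114 ± 33.2 CPM at 4 or more. Tmprss11b went from 18.1% ± 3.21 at 0 to 8.30% ± 1.53 at 1 and 5.61% ± 2.84 at 4 or more, and Tmprss11e from 6.87% ± 2.50 to 2.67% ± 0.968 and 0.546% ± 0.475. Tmprss11g was at 19.0% ± 1.26, 21.3% ± 5.19 and 16.5% ± 3.21 in the same bins, within the spread between libraries. Its mean level was 56.8 CPM ± 17.9 at 0 and 43.6 ± 1.29 at 4 or more, where every library lay below every library at 0. Tmprss2 went from 30.2% ± 2.00 at 0 to 20.2% ± 2.48 at 4 or more. A cell with 0 Nkx2-1 UMIs can still be an airway cell whose transcripts were missed, so other basal cells are not free of airway cells. A cell with exactly 1 can in turn owe it to a stray transcript or a missed doublet, so airway basal cells may hold other cells too. Neither part was measured.

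**Figure D3:**
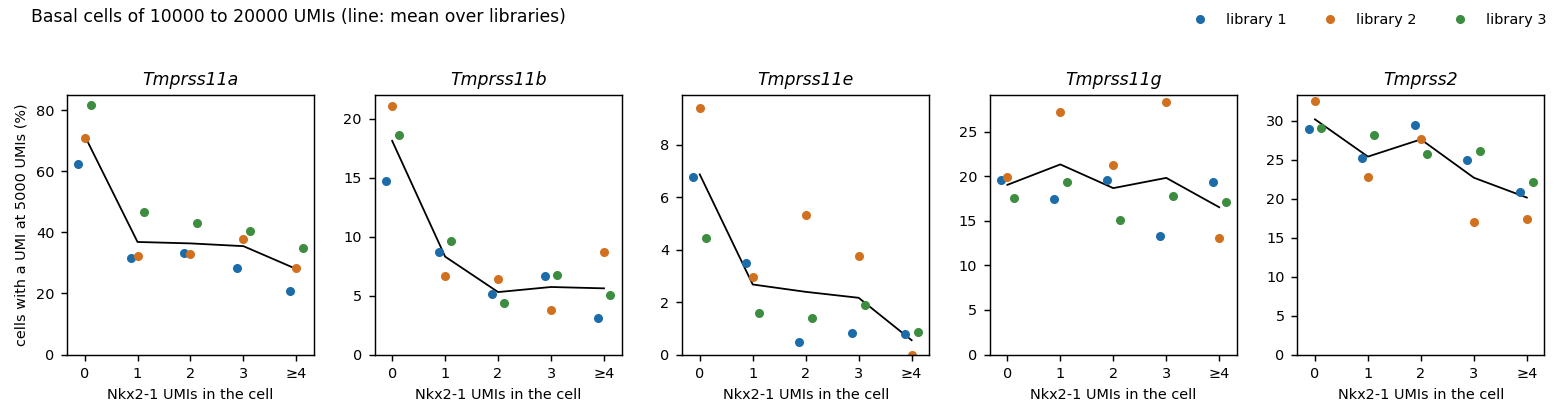
Share of basal cells with a UMI of each gene after thinning to 5000 UMIs (vertical axis, percent) by the number of Nkx2-1 UMIs in the cell (horizontal axis); points are libraries and the line joins means. Tmprss11a drops from a mean of 71.7% to 36.9% between 0 and 1 Nkx2-1 UMIs and Tmprss11g stays between 16.5% and 21.3%.

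Basal cells that held both an Nkx2-1 and a Tmprss11a UMI were 24.1%, 23.4% and 31.8% of all cells in the 2 basal classes of libraries 1, 2 and 3, without thinning. Tmprss11a was thus lower in airway basal cells but not missing from them: its share there, 41.2%, was far above the 2.05% of fibroblasts.

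Within the same range of depth, each of the 6 Tmprss11 genes had a higher mean level in airway basal cells with 20 or more Krt14 UMIs than in those with 0 to 4. With 0 to 4, 5 to 19 and 20 or more Krt14 UMIs, the mean Tmprss11a level was 113, 190 and 306 CPM in airway basal and 370, 515 and 633 CPM in other basal cells, so at each Krt14 count every airway library lay below every other basal library. Tmprss11g went from 30.7 to 62.3 and 105 CPM in airway basal cells, in the same order in each library. In other basal cells Tmprss11g had means of 48.2, 58.7 and 70.0 CPM, but libraries 1 and 3 were lower at 20 or more Krt14 UMIs (38.7 and 46.3 CPM) than at 0 to 4 (47.9 and 48.9), and library 2 alone was higher (125 against 47.8 CPM). Tmprss11b was at 12.5, 24.7 and 22.2 CPM and Tmprss11e at 1.57, 9.65 and 10.1 CPM in the same bins of airway basal cells. In other basal cells Tmprss11b went the other way from Tmprss11a: it stood at 59.5, 68.0 and 72.1 CPM in libraries 1, 2 and 3 at 0 to 4 Krt14 UMIs and at 32.6, 48.1 and 32.6 CPM at 20 or more. These bins share the cells' depth and are a description without a test.

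**Figure D4:**
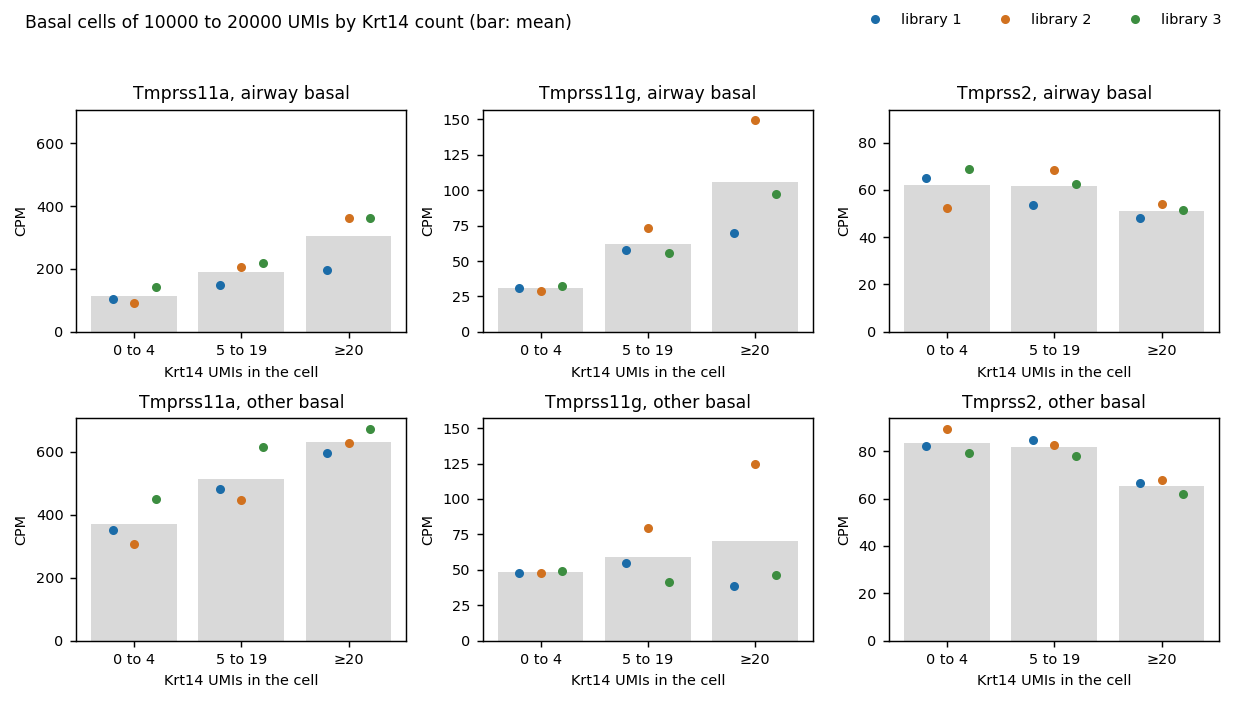
Level in CPM (vertical axis) of Tmprss11a, Tmprss11g and Tmprss2 in airway basal (top) and other basal cells (bottom) by the number of Krt14 UMIs in the cell (horizontal axis); bars are means and points libraries. Tmprss11a is higher with more Krt14 in both rows (to 306 and 633 CPM), Tmprss11g in the top row (to 105 CPM), and the mean of Tmprss2 is lowest at 20 or more Krt14 UMIs in both (51.2 and 65.5 CPM).

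Airway secretory and Krt13-high squamous cells stood further apart in most members than the 2 basal classes did. Between airway secretory and Krt13-high squamous cells 20.1% of all genes were called higher and 21.1% lower, and of the 8 members 7 were called lower in the secretory cells and 0 higher. Tmprss11a was at 28.2, 21.6 and 34.1 CPM in secretory and 599, 478 and 477 CPM in squamous cells, a log2 fold change of -4.09 (SE 0.308, adjusted p = 1.80e-10). Tmprss11e (-4.32, SE 0.640, adjusted p = 6.86e-06) and Tmprss11b (-2.74, SE 0.260, adjusted p = 7.90e-09) were also lower, Tmprss11e on 14 UMIs in all secretory cells against 952 in squamous cells, as was Tmprss11g, which was not called between the basal classes (-1.96, SE 0.392, adjusted p = 0.000263). Tmprss11d (-2.68, SE 0.708, adjusted p = 0.00361) and Tmprss4 (-1.45, adjusted p = 0.00287) were also lower. The Tmprss11d value rests on 27 UMIs in all secretory cells against 775 in squamous cells. The seventh, Tmprss11f (adjusted p = 0.00485), had 2 UMIs in all secretory cells against 109 in squamous cells so no fold is given. Both Tmprss11e and Tmprss11f passed the filter through the classes where they are higher, so their calls add little to the count. That of Tmprss11d, on few secretory UMIs, adds little as well. The call was lost for Tmprss11f without library 1 (adjusted p = 0.103) and for Tmprss11d without library 3 (0.0638). Tmprss2 was the exception, at 79.2, 64.9 and 61.0 CPM against 62.8, 74.1 and 53.9 CPM (log2 fold change 0.20, 95% interval -0.07 to 0.48, adjusted p = 0.268).

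Within the airway, from basal to secretory cells, 11.7% of all genes were called higher and 9.81% lower. Of the members, 3 were called lower, Tmprss11a (-2.62, SE 0.295, adjusted p = 2.81e-07), Tmprss11g (-2.30, SE 0.387, adjusted p = 7.74e-05) and Tmprss11e (-2.27, SE 0.702, adjusted p = 0.0213), and 2 higher, Tmprss4 (2.06, SE 0.406, adjusted p = 0.000476) and Tmprss2 (0.47, SE 0.140, adjusted p = 0.0164). Tmprss11b did not pass (-0.19, SE 0.266, adjusted p = 0.692). Tmprss2 overlapped between the groups in CPM and lost its call without library 1 (adjusted p = 0.362), without library 2 (0.105) and with no filter on low counts (0.242). Tmprss4 lost it without library 1 (0.138), and Tmprss11e without library 1 (0.0911), without library 2 (0.0976) and with at least 2 Nkx2-1 UMIs required (0.0743); its fold rests on the same 14 secretory UMIs, against 603 in airway basal cells. Among airway secretory cells, those with under 10 Scgb1a1 UMIs had 33.0 CPM of Tmprss11a and those with 10 or more UMIs of this club cell protein 7.37 CPM (2 libraries with enough cells), while Tmprss4 was at 8.65 and 14.9 CPM and Tmprss2 at 69.4 and 69.9 CPM.

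From other basal to Krt13-high squamous cells, 10.7% of all genes were called higher and 11.2% lower, and of the members 3 were called higher and 0 lower. Tmprss4 rose most (3.33, SE 0.347, adjusted p = 2.22e-07), from 2.41, 1.58 and 4.51 CPM to 24.7, 24.2 and 33.3 CPM. Tmprss11b rose by 1.04 (SE 0.208, adjusted p = 0.000671). Tmprss11d was called at 1.46 (SE 0.521, adjusted p = 0.0460), a call lost in 6 of 10 alternatives, among them without library 2 (adjusted p = 0.173) and without library 3 (0.217). Tmprss11e was at 0.69 (SE 0.380, adjusted p = 0.204) and passed only with the replicate block (0.0285). Tmprss11a (0.23, 95% interval -0.27 to 0.73), Tmprss11g (-0.04, -0.64 to 0.56) and Tmprss2 (-0.11, -0.37 to 0.15) had no detectable change.

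The difference between these 2 steps, airway basal to airway secretory less other basal to Krt13-high squamous, was tested directly in the same fit. The steps were unlike in basal keratin. Krt14 went from 933 CPM ± 87.4 in airway basal to 45.6 ± 20.3 in airway secretory cells, which were gated on at most 1 Trp63 UMI. It was at 1148 ± 301 in other basal and 1346 ± 508 in Krt13-high squamous cells, which had no Trp63 limit. The part of this in the difference was not tested. Over all genes 9.08% were called higher and 7.23% lower, and of the members 4 were lower and 1 higher. Tmprss11e differed by -2.96 (SE 0.798, adjusted p = 0.0117), Tmprss11a by -2.85 (SE 0.388, adjusted p = 1.31e-05), Tmprss11g by -2.26 (SE 0.496, adjusted p = 0.00227) and Tmprss11b by -1.23 (SE 0.336, adjusted p = 0.0128), all on the log2 scale. The Tmprss11e value rests on 14 UMIs in all airway secretory cells. Its pass of the filter came through the classes where it is higher, so its call adds little to the count. Tmprss2 differed the other way by 0.58 (SE 0.193, adjusted p = 0.0398). Tmprss11a and Tmprss11g were called in all 10 alternatives, Tmprss2 in 5. Without library 1 the adjusted p was 0.0952 for Tmprss11e and 0.464 for Tmprss2, without library 2 it was 0.0666 for Tmprss11b, 0.0575 for Tmprss11e and 0.131 for Tmprss2, and without library 3 it was 0.110 for Tmprss11b; Tmprss11d (-2.04, adjusted p = 0.128) passed only without library 1 (-2.92, adjusted p = 0.0475). Tmprss4, at -1.27 (SE 0.515, adjusted p = 0.0989), passed with the replicate block (adjusted p = 0.0157). These comparisons share the sums of airway basal, other basal, airway secretory and Krt13-high squamous cells and are not independent of one another.

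**Figure D5:**
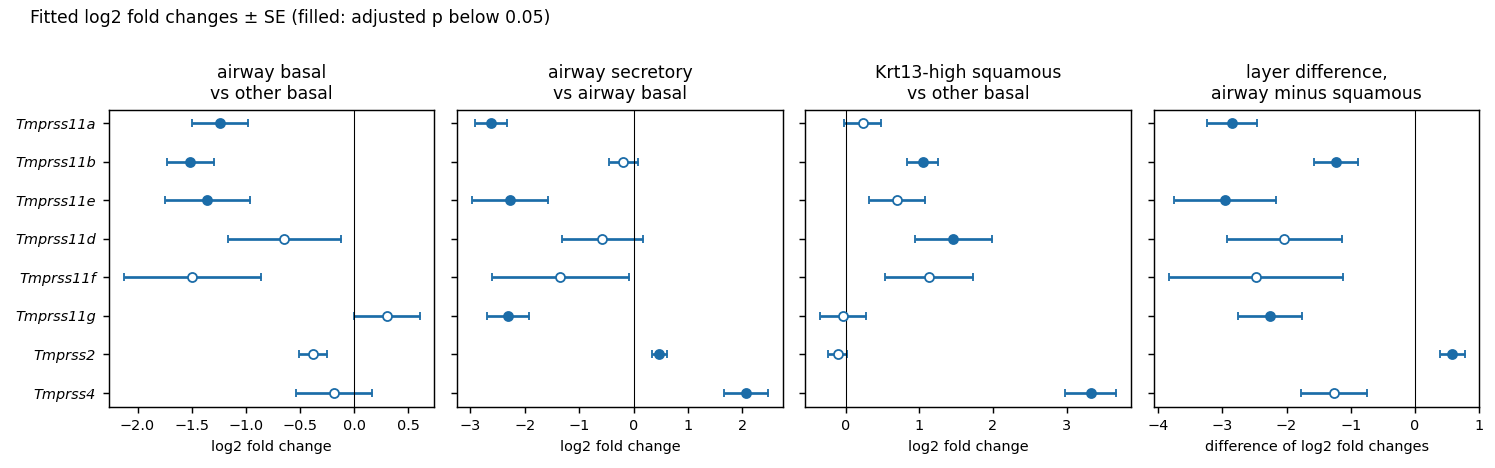
Log2 fold changes of the 8 genes (horizontal axis; bars are standard errors) in 4 comparisons fitted with edgeR; filled points passed an adjusted p of 0.05. Tmprss11a, Tmprss11b and Tmprss11e lie below 0 in the first panel with filled points, Tmprss11g lies at 0.30 there but at -2.30 in the second, and Tmprss4 is above 0 in both middle panels (2.06 and 3.33).

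After thinning to 5000 UMIs, most cells of the classes gated on no Nkx2-1 had a UMI of at least 1 member. The share with none of the 8 was 5.03% ± 2.20 in Grm8/Clca3a2 suprabasal cells, 5.94% ± 1.48 in Krt13-high squamous cells and 14.2% ± 4.93 in other basal cells, against 35.0% ± 7.50 in airway basal, 56.3% ± 4.30 in airway secretory and 96.0% ± 1.39 in fibroblasts. At least 2 members were found in 65.1% ± 3.08 of Grm8/Clca3a2 suprabasal cells, 47.0% ± 2.63 of other basal cells and 27.2% ± 6.58 of airway basal cells. Of the 15 pairs within the chromosome 5 cluster, 4 had at least 5 expected cells in every library of airway basal cells, and these 4 were seen in the same cell more often than independent detection would give, a description without a test. The ratio of observed to expected cells was 1.37 for Tmprss11a with Tmprss11g (768 cells, 1.26 to 1.49 over libraries), 1.44 for Tmprss11a with Tmprss11b (334 cells, 1.23 to 1.58), 1.66 for Tmprss11a with Tmprss11e (103 cells, 1.42 to 2.07) and 1.67 for Tmprss11g with Tmprss11b (173 cells, 1.51 to 1.81). With Tmprss2 the ratios were 1.04, 0.922 and 0.860 for Tmprss11a, Tmprss11g and Tmprss11b. In Krt13-high squamous cells the ratios of Tmprss11a were 1.00 with Tmprss11g and 0.993 with Tmprss11b, and that of Tmprss11g with Tmprss11b was 1.29 (1.02 to 1.48). In other basal cells the same 3 ratios were 1.08, 1.14 and 1.31. The share of cells with a Tmprss11a UMI was 81.7% in Krt13-high squamous and 73.0% in other basal cells. Such shares leave little room for a ratio above 1, so these Tmprss11a ratios cannot be set against those of airway basal cells (share 41.2%).

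Across the 29 sums of library and epithelial class, which share libraries and depth, the log2 level of Tmprss11a correlated with that of Tmprss11g by r = 0.91, with Tmprss11b by 0.88 and with Tmprss11f by 0.83, and with those of Tmprss2 and Tmprss4 by -0.15 and -0.48. The 3 genes of all tested most like Tmprss11a were Crybg1 (r = 0.97), the integrin chain Itga6 (0.96) and the foregut transcription factor Foxe1 (0.96). Those most like Tmprss11b were Acsm3 (0.96), the sialyltransferase St6galnac2 (0.95) and Id2 (0.95), and those most like Tmprss11g included Arhgap10 and 2900026A02Rik (0.95 each). For Tmprss4 they were Metrnl (0.91), the simple epithelial keratin Krt8 (0.91) and the polarity gene Llgl2 (0.90), and for Tmprss2 Rnf24, Ttc9 and Arhgef28 (0.89 each). Tmprss11e was nearest to Gpnmb (0.90), Gata3 (0.86) and Arap2 (0.84), Tmprss11d to Rerg (0.89), Rab3d (0.87) and Foxq1 (0.87), and Tmprss11f to its neighbour Tmprss11b (0.88), Acsm3 (0.87) and Gm57133 (0.87).

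The members' surroundings in the protease network were taken from 4 lists, to be read against the 3.6% of all genes called higher and 2.39% lower between the basal classes. Among 10 tested of 17 other serine proteases listed as membrane-anchored, a trait not checked here, 1 was higher and 1 lower in airway than in other basal cells. These were hepsin, Hpn (0.68, SE 0.177, adjusted p = 0.0191), and the tryptase Prss22 (-0.93, SE 0.168, adjusted p = 0.000875), with a list median of -0.29. Of 10 tested of 12 protease inhibitors edgeR called 0 in this comparison and 2 had an unadjusted p under 0.05, Serpinb6a (-0.27, adjusted p = 0.0653) and Serpinb5 (-0.64, adjusted p = 0.196); Spint1 and Spint2, Kunitz inhibitors of membrane-anchored proteases, were at -0.02 and -0.04. Of 12 substrates and receptors 2 were lower, the epithelial sodium channel subunits Scnn1b (-2.57, SE 0.423, adjusted p = 0.000373) and Scnn1g (-1.32, SE 0.271, adjusted p = 0.00281) but not Scnn1a of the same channel (1.08, SE 0.402, adjusted p = 0.137), and 2 higher, among them the growth factor Hgf (1.63, SE 0.471, adjusted p = 0.0368). Of 4 tested of 10 kallikreins, secreted serine proteases of squamous epithelium, 1 was lower, Klk10 (-1.43, SE 0.403, adjusted p = 0.0326). Between airway secretory and Krt13-high squamous cells 3 of the 4 kallikreins were lower (Klk10 by -4.80, Klk13 by -3.33 and Klk11 by -2.05). In the same comparison, where 20.1% of all genes were called higher and 21.1% lower, 4 proteases of the first list were lower and 2 higher, 5 inhibitors lower and 2 higher, and 5 substrates and receptors lower and 5 higher. The serpins Serpinb2 (-5.11) and Serpinb5 (-2.66) were among the lower inhibitors, and the higher substrates included Hgf (4.75) and its activator Hgfac (3.24).

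Last, basal cells with and without a Lrig1 UMI were compared, as Lrig1 drives the reporter. In other basal cells the levels of Tmprss2 were 82.4, 81.5 and 75.0 CPM in Lrig1-positive and 67.0, 61.3 and 61.8 CPM in Lrig1-negative cells, without overlap. In airway basal cells they were 60.0, 58.8 and 64.7 CPM against 47.0, 53.7 and 58.0 CPM, higher in the Lrig1-positive cells of 3 of 3 libraries. Of 14690 genes tested, edgeR called 0.0% in either class and 0 of the 8 members; 487 genes in other basal and 548 in airway basal cells had an unadjusted p under 0.05, and DESeq2 called 5 and 10 genes and no member. With the library as a replicate block Tmprss2 passed in other basal cells (0.33, SE 0.0718, adjusted p = 0.0412), where 0.49% of all genes were called higher, and not in airway basal cells (0.21, SE 0.0739, adjusted p = 0.178), where 1.06% were. The other 7 members passed in none of these fits; for Tmprss11a the 95% intervals were -0.30 to 0.47 in other and -0.55 to 0.23 in airway basal cells. Lrig1-positive cells were deeper in every library. In libraries 1, 2 and 3 their median was 15776, 19808 and 14306 UMIs against 12039, 17024 and 6477 in other basal cells, and 17179, 20262 and 14163 against 15164, 18671 and 9005 in airway basal cells, and the part of depth in these values was not tested.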

How the data were processed

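Single-cell RNA sequencing of 3 libraries was analysed. The authors deposited whole-number UMI counts per gene and barcode, without normalization, from Cell Ranger 8.0.1 on mm39 per the submitters' processing notes; the annotation and the counting of introns are not given in the sources used here. Limits were 500 to 8000 genes, 1000 to 40000 UMIs and a mitochondrial share of 8% or less per barcode, and doublets were scored against simulated ones on 30 principal components and removed at 0.4% per 1000 barcodes. Cells were put in classes by UMI counts of fixed markers, with Epcam and Cdh1 for epithelium, and UMI counts were summed per library and class, over classes with at least 20 cells. The test was edgeR's two-sided quasi-likelihood test (version 4.0.16 in R 4.3.3) after filterByExpr and TMM scaling, with Benjamini-Hochberg adjustment and a threshold of 0.05, and alternatives included DESeq2 1.42.0 and a block for the library. On simulated counts of 16567 genes for airway against other basal cells, 166 of 200 genes changed 2-fold were recovered, with 10 false calls. The changed genes were drawn from those above a floor of mean level, and the sums were drawn without a library effect. These figures therefore do not cover members at a low level or the pairing given next. Both classes of a library come from the same animals, which pairs them: deviations from the class means correlated by 0.357, 0.607 and 0.825 between the basal classes. Each library is a separate pool. The main fits had no block, so sums of different classes from the same pool entered as independent. The spread behind the p-values was estimated over all classes in the fit together, not over the compared classes alone. Intervals of shares are Wilson intervals and cover counting error only; intervals of log2 fold changes are normal intervals from the SE. Members, marker gates and lists were chosen with earlier results of these data known. All members are named, with up to 4 genes of each list by largest change and the 3 genes most correlated with each member. Some genes that this rule names are not reported here. Coordinates are GRCm39, and promoter windows RefSeq GRCm38.p6. Other experiments of the study were not analysed here.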

Additional observations from a re-analysis of the deposited data

Results flagged for a closer look

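The step from airway basal to airway secretory cells was tested directly against that from other basal to Krt13-high squamous cells. It differed for 5 of the 8 genes, 4 lower and 1 higher, where 7.23% of all genes were called lower and 9.08% higher. On the log2 scale, airway minus squamous, the difference was -2.85 for Tmprss11a, -1.23 for Tmprss11b, -2.96 for Tmprss11e, -2.26 for Tmprss11g and 0.58 for Tmprss2. The call held in all 10 alternatives for Tmprss11a and Tmprss11g, in 8 for Tmprss11e, in 7 for Tmprss11b and in 5 for Tmprss2. The Tmprss11e value rests on 14 UMIs in all airway secretory cells. That gene passed the filter through the classes where it is higher, so its call adds little to the count. For Tmprss11a and Tmprss11g the airway step was called lower and the squamous step did not pass, whereas for Tmprss11b the airway step did not pass and the squamous step was called higher. The squamous step runs from other basal to Krt13-high cells only. Krt13-high cells kept the basal keratin Krt14, at 1346 CPM against 1148 in other basal cells. Airway secretory cells had 45.6 CPM against 933 in airway basal cells, so the 2 steps are not alike. The part of this in the difference was not tested. Tmprss11a was lower in Sult1b1/Muc4/Atp6v0a4 luminal cells (339 CPM ± 53.8) than in other basal cells (485 ± 53.6) without overlap, and Tmprss11g overlapped between them. That step was not tested.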

How the results depend on the processing

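No member reversed a called direction under the 10 alternatives, and of 400 member values in the 5 comparisons between classes 365 kept their side of the threshold, 31 lost it and 4 gained it. The 365 include members not called in the main fit that stayed uncalled. Only values called in the main fit could be lost, so the 31 are a larger part of those than of the 400. With the replicate block the number of genes called moved from 993 to 2565 for airway against other basal cells, from 3624 to 6305 for Krt13-high squamous against other basal cells and from 2703 to 4707 for the layer difference, and from 0 to 207 and 319 for Lrig1 in other and airway basal cells, where DESeq2 called 5 and 10. The block changed no member's call beyond the 4 given above. With doublets kept 630 genes were called between the basal classes. Leaving out a replicate gave 318 to 820 genes between the basal classes, 3989 to 5968 for airway secretory against Krt13-high squamous, 1452 to 3432 for airway secretory against airway basal, 1501 to 2736 for Krt13-high squamous against other basal and 793 to 2199 for the layer difference, with fewer samples in each fit. Calls of Tmprss11b (layer difference, adjusted p = 0.0604) and Tmprss2 (layer difference, 0.107) were also lost with doublets kept, and that of Tmprss2 with cells of at least 10000 UMIs (0.0561) and with no filter (0.134). All 32 shares of cells compared moved by more than 1 SD without thinning and 24 at 2000 UMIs, since shares rise with depth; that of Tmprss11a in airway basal cells was 41.2% at 5000 UMIs, 25.4% at 2000 and 55.9% without thinning. Tmprss11f and Tmprss11d rest on few UMIs, and neuroendocrine cells on 2 libraries.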
